A study of Mus musculus with 12 samples.

Results

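Peaks of the transcription factor Nrf2 were examined within 50 kb on either side of the starts of 4 mouse genes of heme breakdown and iron storage, Hmox1, Ftl1, Fth1 and Blvrb. The genes were chosen by name, and all peaks of 6 lists that overlapped these windows were taken, without regard to their scores. The approximate gene starts of the mm9 genome that centred the windows were position 77617500 on chromosome 8 for Hmox1, 52715300 on chromosome 7 for Ftl1, 10057200 on chromosome 19 for Fth1 and 28232900 on chromosome 7 for Blvrb. The windows held 44 of the 8644 peaks, which merged into 9 of the 4147 regions of the series.

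The peaks came from chromatin immunoprecipitation and sequencing (ChIP-seq) with an anti-Nrf2 antibody in peritoneal macrophages of mice aged 7 to 8 weeks. The wild-type (WT) group carried normal Nrf2, and the AY group was Nrf2(AY/AY), homozygous for an allele whose protein is known to carry tyrosine in place of an alanine that contacts DNA. The cells of both groups had been drawn into the peritoneum with 4% thioglycolate broth, collected 4 days later, and kept for 4 hours with diethyl maleate at 100 µM, an electrophilic agent under which Nrf2 escapes degradation. There was thus no untreated group, and each group had 3 ChIP libraries; the 6 input libraries were not analysed here. The labels do not say whether a library came from 1 animal or from several, and the sources used here give no strain or sex. A transcription factor's peaks hold no expression values, so the labelled cell type was not checked against markers.

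Heme released from aged red cells and from proteins is opened by heme oxygenase, which yields iron, carbon monoxide and biliverdin. Hmox1 encodes the inducible heme oxygenase, and Blvrb encodes a biliverdin reductase that also reduces flavins. The freed iron is kept in ferritin, a hollow shell built of light chains, encoded by Ftl1, and of heavy chains, encoded by Fth1, which oxidise iron as it enters. Macrophages carry much of this load in the body, and all 4 genes are known targets of Nrf2. Nrf2 binds DNA together with a small Maf protein at antioxidant response elements. Wild-type Nrf2 and the AY protein are known to differ in the bases they prefer beside the core of that element: the AY change gives Nrf2 a residue found in Maf proteins, and moves its preference toward the sites that pairs of Maf proteins bind.

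No genome sequence of mm9 was at hand, so the bases under the peaks are not shown. What could be read were promoter windows of RefSeq genes on another build, GRCm38.p6, with 250 bases before and 50 after each start. These windows held 5 starts of 3 of the 4 genes (Blvrb, Ftl1 and Fth1). The core TGACNNNGC or TGAGNNNGC, on either strand, was found in 1 of these 5 windows, the first Blvrb start, and in 27.8% of all 32851 windows. The core preceded by A or G, a form that suits Nrf2 with a small Maf protein, was in 13.8% of all windows and in the same Blvrb window. The core preceded by GC, a form that suits Maf proteins, was in 3.95% of all windows and in none of the 5. Both forms contain the core, both strands were searched, and matches may share bases. The 250 bases before the first Blvrb start (GRCm38.p6, chr7:27447728-27447977, plus strand) are shown because they hold the one match, whose core is in capitals and reads as such on the opposite strand. The 250 bases before the Ftl1 start (GRCm38.p6, chr7:45459887-45460136, minus strand) are shown beside them because the highest-ranked peak of the 4 genes lay just beyond this stretch.
Blvrb: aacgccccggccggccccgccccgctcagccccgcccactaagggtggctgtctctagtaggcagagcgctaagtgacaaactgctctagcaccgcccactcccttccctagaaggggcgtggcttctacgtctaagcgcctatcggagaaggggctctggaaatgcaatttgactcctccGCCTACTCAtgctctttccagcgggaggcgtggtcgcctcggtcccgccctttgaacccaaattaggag
Ftl1: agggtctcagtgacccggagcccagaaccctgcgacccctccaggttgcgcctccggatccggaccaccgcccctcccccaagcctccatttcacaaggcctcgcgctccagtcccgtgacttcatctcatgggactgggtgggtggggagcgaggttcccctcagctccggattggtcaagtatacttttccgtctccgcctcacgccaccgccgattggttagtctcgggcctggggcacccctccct
A match is a run of letters and not a measured site, and the peaks described next did not cover these promoter bases as far as the approximate starts allow: the nearest peak edge was 524 bp from a start.

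The lists differed in length between libraries of 1 genotype, from 826 to 1604 peaks in WT and from 1086 to 2154 in AY. Each peak has a score from the authors' peak caller, which does not fall below 50 and was read as -10 log10 of the p-value. The read depth behind the scores is unknown, so a peak missing from a list shows only that the site stayed below the threshold of the peak caller there. Scores were therefore used to rank peaks within 1 list, with rank 1 the highest. WT replicates 1 and 3 had no peak on the Y chromosome, whereas the other 4 libraries had 15 to 27, and WT replicate 3 had 7.89% of its peaks on X against 1.35% to 2.87% elsewhere. The 4 genes lie on chromosomes 7, 8 and 19, and values without each library are given where they change a result. The lists without Y peaks were of WT only, so whatever this marks is partly confounded with genotype. No setting left out WT replicates 1 and 3 together.

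In the full lists, all 4 genes had at least 1 region occupied in every library of both genotypes. Of the 9 regions, 6 (66.7%) were held by all 6 libraries, against 4.87% of all regions of the series. No region of the 4 windows was held by the 3 WT libraries alone, a class that took 5.21% of all regions. Held by the 3 AY libraries and no WT library were 2 regions (22.2%), 1 near Ftl1 and 1 near Fth1, against 9.38% of all regions. The remaining region, near Hmox1, had a peak in AY replicates 1 and 2 only. Every peak found in a WT library within these windows thus had a counterpart in each AY library, and 3 regions were seen in AY lists alone. The share of all regions of the series seen in any AY list and no WT list, or the reverse, was not computed. The counts of regions seen in 1 genotype alone therefore describe the windows and do not set them apart from the series. The share held by all 6 libraries was higher than in the series, 66.7% against 4.87%, and this difference was not tested.

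The number of peaks in the windows was 6 in each of the 3 WT libraries, and 9, 9 and 8 in AY replicates 1, 2 and 3. The counts of the genotypes did not overlap. WT libraries averaged 6.0 ± 0.0 and AY libraries 8.67 ± 0.577 (SD, n = 3), a difference of -2.67 peaks for WT minus AY (two-sided exact permutation p = 0.1, the smallest that 3 against 3 libraries allow). Lists differed in length as well, and as a share of the list the window peaks of the 3 WT libraries made up 0.374%, 0.726% and 0.391%, and those of the 3 AY libraries 0.418%, 0.625% and 0.737%, in replicate order. These shares overlapped, with a difference of -0.0957 percentage points (exact permutation p = 0.5). With only peaks that scored at least 100, the difference in number was -0.667 peaks (exact permutation p = 0.7). It was -1.0 with the 826 best peaks of each library, and also -1.0 with windows of 25 kb on either side (exact permutation p = 0.1 in both).

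**Figure D1:**
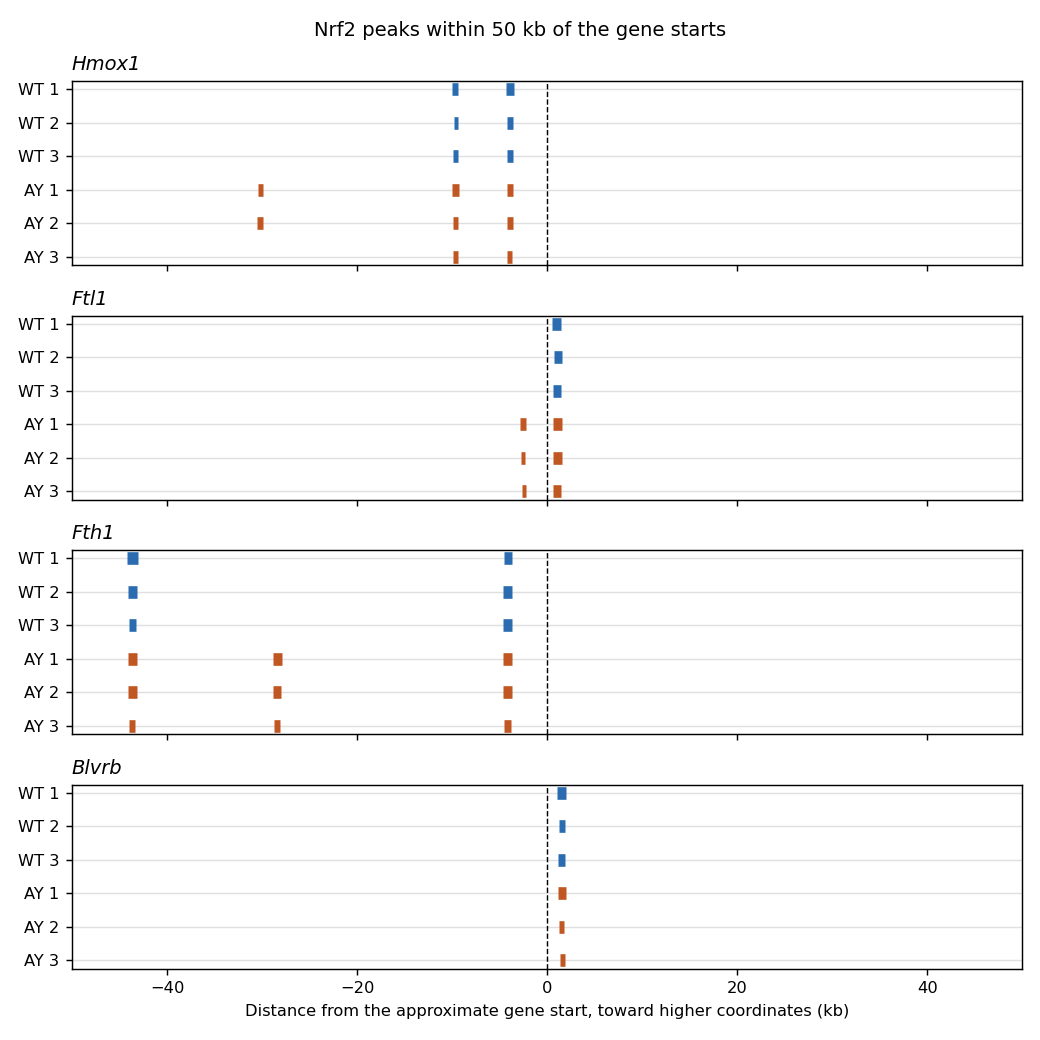
Nrf2 peaks around the 4 genes in each library, 1 row per library (WT blue, AY orange). The horizontal axis is the distance in kb from the approximate gene start toward higher coordinates, bars span the peaks and the dashed line is the start. Peaks recur at the same 6 places in all libraries, and bars at 3 further places are seen in AY rows only.

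Hmox1, the enzyme that opens the heme ring, had 3 regions, all at lower coordinates than its start. This is the upstream side, since the gene is read toward higher coordinates. Textbook accounts place its main stress-responsive enhancers there. In the RefSeq table of GRCm38.p6 the neighbouring protein-coding genes are Tom1 on the lower and Mcm5 on the higher side. The region nearest the start, at 77613176 to 77614019 on chromosome 8, had its peak midpoints on average 3.9 kb below the start and was held by all 6 libraries. In replicate order, the order used for all values that follow, the authors' scores there were 377.33, 177.65 and 200.19 in the WT libraries and 365.41, 115.09 and 153.38 in the AY libraries. These peaks ranked 165, 181 and 240 in the WT lists, which is within the best 10.3% to 21.9% of each. In the AY lists they ranked 277, 636.5 and 268, or 12.9%, 44.2% and 24.7% of the way down, tied scores sharing a mean rank. AY replicate 2 stood lowest, and the other AY libraries lay near the WT range.

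A second Hmox1 region occupied in all 6 libraries lay 9.6 kb below the start, at 77607449 to 77608221. Its ranks were 444, 305 and 346 in the WT lists and 447, 1089 and 546.5 in the AY lists. AY replicate 2 was again the lowest, with a score of 65.92, whereas AY replicate 1 had the highest score at this region, 250.98. Within each list the nearer region scored higher than this one, in 6 of 6 libraries, and the midpoints of both regions lay 5.76 kb apart. The third Hmox1 region, 30.2 kb below the start at 77586953 to 77587616, had peaks in AY replicate 1 (score 120.06) and AY replicate 2 (score 103.3). Both stood near the middle of their lists, at 49.5% and 49.4%. AY replicate 3 and the WT libraries had no peak there. In AY replicate 2 this distant peak scored above the region at 9.6 kb, and in AY replicate 1 below it.

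Ftl1, the ferritin light chain gene, had the highest-ranked peak of the 4 genes in every library. The gene is read toward lower coordinates, and its neighbours in the RefSeq table are Gys1 and Bax. The peak lay on the upstream side, with its midpoints on average 1.1 kb from the start, in the region 52715824 to 52716829 of chromosome 7. WT scores were 1012.96, 602.44 and 556.23, and AY scores were 1740.02, 1153.29 and 645.63. The WT lists ranked it 23, 15 and 30 and the AY lists 13, 14 and 16, so every library placed it within the top 1.96% of its peaks. Among the 4 genes this was the one shared region at which all AY libraries stood above all WT libraries on the scale described below.

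On the other side of the Ftl1 start, the downstream side, a region at 52712421 to 52713085 was held by the 3 AY libraries and no WT library. Its midpoints were on average 2.5 kb from the start, and the distance to the midpoint of the upstream region was 3.57 kb. The scores, 97.52, 59.96 and 90.63 in AY replicates 1, 2 and 3, were low in each case, and the one of AY replicate 2 was near the floor of 50. They placed the peaks 58.4%, 81.0% and 48.7% of the way down the AY lists. With a minimum score of 100 the region was absent from all 6 libraries. With the 826 best peaks of each library, the length of the shortest list, it was kept in AY replicate 3 alone.

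**Figure D2:**
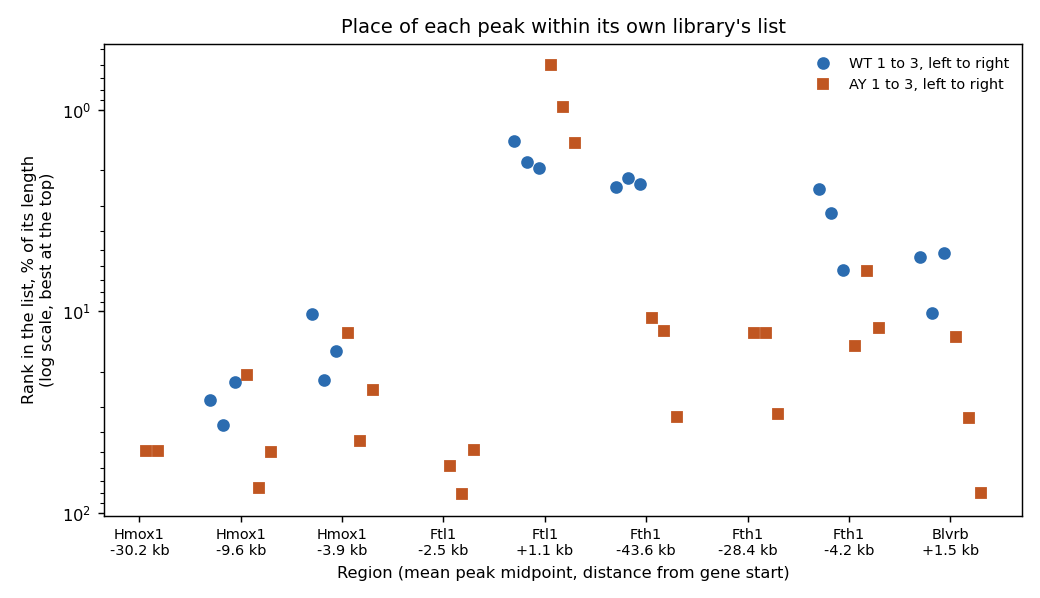
Rank of each peak as a percent of the length of its own list, on a log scale with the best rank at the top, for the 9 regions (WT circles, AY squares, replicates 1 to 3 from left to right). The upstream Ftl1 peaks lie within the top 1.96% in every library, the downstream Ftl1 peaks of AY libraries between 48.7% and 81.0%.

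Fth1, the ferritin heavy chain gene, had 3 regions, all on the upstream side of a gene read toward higher coordinates, whose neighbours in the RefSeq table are Incenp on the lower and Best1 on the higher side. The region nearest the start lay on average 4.2 kb away, at 10052552 to 10053531 on chromosome 19. Its scores were 739.4, 527.64 and 345.94 in the WT libraries and 323.19, 464.38 and 253.83 in the AY libraries. The ranks were 40, 27 and 96 in the WT lists, the top 2.49% to 6.26%, and 321, 91 and 133 in the AY lists, the top 6.32% to 14.9%. WT replicate 3, at 6.26%, and AY replicate 2, at 6.32%, were almost level.

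The farthest Fth1 region lay 43.6 kb below the start, at 10013037 to 10014101. It was in the top 2.18% to 2.43% of the 3 WT lists, with ranks of 39, 18 and 36. In AY replicates 1, 2 and 3 it ranked 233, 181 and 366, or 10.8%, 12.6% and 33.7% of the way down, and the genotypes did not overlap. The scores there were 764.97, 572.39 and 517.44 in WT and 413.29, 323.55 and 121.0 in AY. In each WT library this distant region scored above the one at 4.2 kb, whereas AY replicates 2 and 3 had the reverse order and AY replicate 1 the same order as WT. Over such a distance other genes may lie nearer, so the region is named by its position and was not assigned to Fth1 by any measurement.

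Between both, 28.4 kb below the Fth1 start, the region 10028351 to 10029260 was held by all 3 AY libraries and by no WT library. Its scores were 366.49, 321.27 and 125.11 in AY replicates 1, 2 and 3, which placed it 12.8%, 12.8% and 32.5% of the way down the lists. It thus stood higher in each AY list than the AY-only peaks at Ftl1. It was still held by 3 of 3 AY and 0 of 3 WT libraries with a minimum score of 100 and with lists cut to 826 peaks. In all 3 AY lists it stood close to the region at 43.6 kb, with ranks of 275, 184 and 353 against 233, 181 and 366.

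Blvrb, a gene for a biliverdin reductase that also reduces flavins, had a single region, at 28233975 to 28234900 on chromosome 7. Its midpoints lay on average 1.5 kb from the start toward higher coordinates, the direction in which the gene is read, and its neighbours in the RefSeq table are Sptbn4 and Sertad3. The WT libraries scored it at 533.78, 287.95 and 379.78 and the AY libraries at 354.06, 145.64 and 59.27. The WT libraries ranked it 87, 84 and 79, the top 5.15% to 10.2% of their lists. The AY libraries ranked it 291, 491 and 872, which was 13.5%, 34.1% and 80.3% of the way down, so the genotypes did not overlap. The peak of AY replicate 3 was close to the caller's floor, and it was missing with a minimum score of 100 and with lists cut to 826 peaks.

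**Figure D3:**
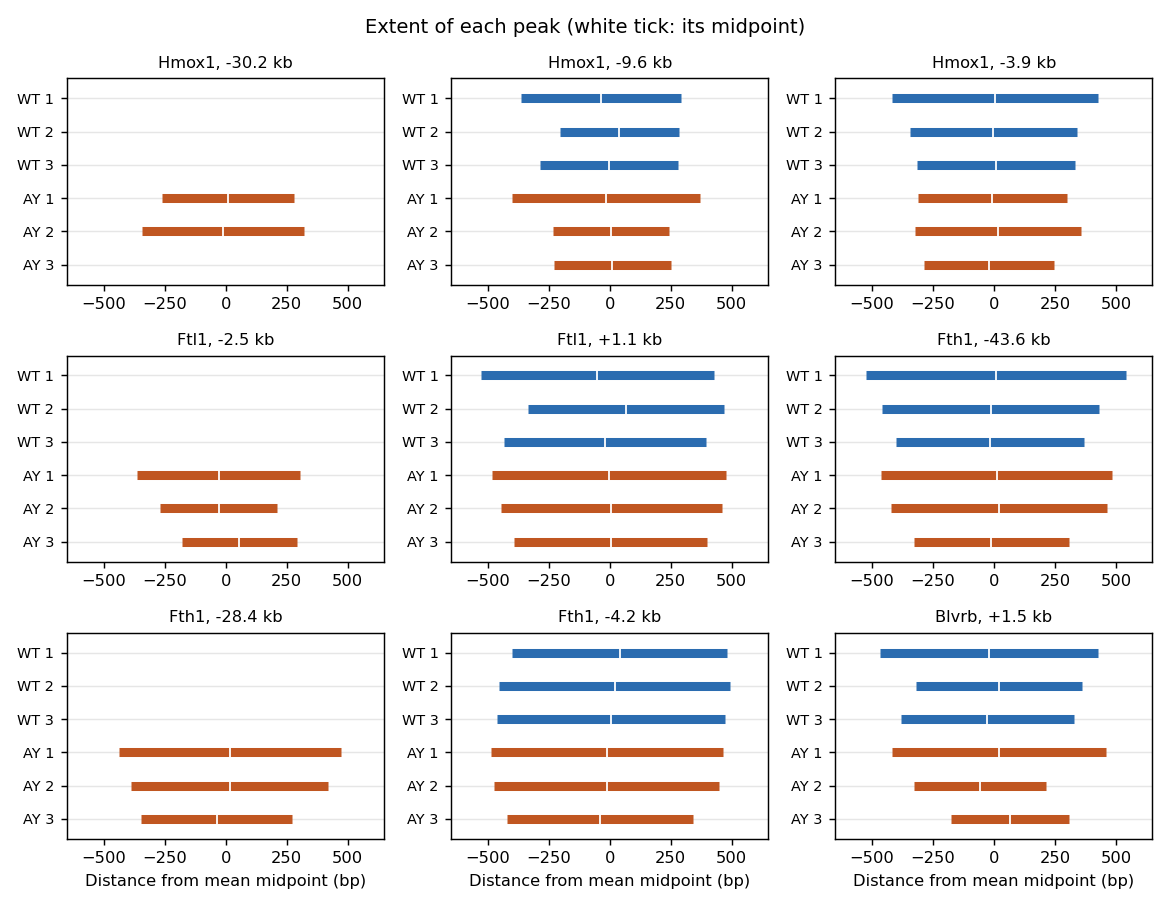
Extent of every peak in the 9 regions, drawn in bp around the mean midpoint of the region (bars span the peaks, white ticks are midpoints, WT blue, AY orange). Midpoints of 1 region stay within 123.5 bp of each other, and at the Fth1 region 4.2 kb from the start the AY midpoints lie to the left of the WT midpoints.

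For the comparison of genotypes the unequal list lengths were set aside by ranking, in each library, the same 202 regions that all 6 libraries held. The question was whether the sites of these genes held a different place among the shared sites when the AY protein was bound in place of the wild-type protein. The 3 WT and 3 AY ranks did not overlap at 3 of the 6 shared regions of the 4 genes, whereas this was so at 60.4% of all 202. Of the 3, 2 ranked higher in WT, the Fth1 region at 43.6 kb and the Blvrb region, and 1 ranked higher in AY, the upstream Ftl1 region. Over all shared regions 32.2% ranked higher in WT and 28.2% higher in AY. The number of separated regions at these genes was thus near the background of the series. With 6 regions, this count cannot show whether the genes differ from the series, and the difference was not tested. WT had the better mean rank at 5 of the 6, with a median difference of -29.67 ranks (WT minus AY), against -4.83 over all 202. The median of the series thus leaned to WT as well, and the share of the 202 with a better mean rank in WT was not computed. Hmox1 and Fth1 gave 2 of the 6 regions each. The 5 of 6 is therefore a description and was not tested.

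The Blvrb region had the widest gap. WT ranks were 65, 59 and 49 and AY ranks 115, 153 and 186, each WT library standing above each AY library. The WT mean was 57.67 ± 8.08 and the AY mean 151.33 ± 35.53 (SD, n = 3), a difference of -93.67 ranks (exact permutation p = 0.1, adjusted p = 0.166 over the 202 regions by the Benjamini-Hochberg method). No region of the series could reach a lower p with 3 libraries a genotype, and 0 of 202 had an unadjusted p under 0.05.

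At the Fth1 region 43.6 kb from the start, WT ranks were 33, 15 and 24 and AY ranks 99, 88 and 122. The means of 24.0 ± 9.0 and 103.0 ± 17.35 (SD, n = 3) differed by -79.0 ranks (exact permutation p = 0.1, adjusted p = 0.166). At the Fth1 region 4.2 kb from the start, WT libraries held ranks 34, 23 and 57 and AY libraries 119, 50 and 64. They overlapped, because AY replicate 2 stood above WT replicate 3. The means were 38.0 ± 17.35 and 77.67 ± 36.47 (SD, n = 3), with a difference of -39.67 ranks (exact permutation p = 0.2, adjusted p = 0.289). Without WT replicate 3 the difference was -49.17 and without AY replicate 2 it was -53.5, and in both cases the genotypes no longer overlapped; without AY replicate 1 it shrank to -19.0. As a percent of the whole lists the ranks did not overlap, with a difference of -7.15 percentage points (exact permutation p = 0.1), the nearest libraries being WT replicate 3 at 6.26% and AY replicate 2 at 6.32%. Without both libraries numbered 3 the genotypes were apart as well, by -56.0 ranks.

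The upstream Ftl1 region held ranks 19, 12 and 22 in WT and 10, 10 and 11 in AY. Its means, 17.67 ± 5.13 in WT and 10.33 ± 0.58 in AY (SD, n = 3), differed by 7.33 ranks in the other direction (exact permutation p = 0.1, adjusted p = 0.166). The gap between the nearest libraries was 12 against 11, and it closed to an overlap when peaks up to 1 kb apart were merged (difference 7.0, exact permutation p = 0.2). As a percent of the whole lists the ranks overlapped as well, with a difference of 0.72 percentage points.

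At Hmox1 the genotypes overlapped at both shared regions. The region at 3.9 kb held ranks 99, 106 and 111 in WT and 111, 164 and 100 in AY, with means of 105.33 ± 6.03 and 125.0 ± 34.22 (SD, n = 3; difference -19.67, exact permutation p = 0.5). The region at 9.6 kb held ranks 171, 141 and 137 in WT and 140, 196 and 153 in AY, with means of 149.67 ± 18.58 and 163.0 ± 29.31 (SD, n = 3; difference -13.33, exact permutation p = 0.6). Both differences were smaller than the SD within AY and moved with the AY libraries. Without AY replicate 2 they were -0.17 and 3.17 ranks, without AY replicate 1 -26.67 and -24.83, and without AY replicate 3 -32.17 and -18.33. The difference at 9.6 kb was -24.0 without WT replicate 1, -9.0 without WT replicate 2 and -7.0 without WT replicate 3. Without both libraries numbered 3 the genotypes were apart at 3.9 kb, by -35.0 ranks, and overlapped at 9.6 kb. With lists cut to 826 peaks, the region at 3.9 kb ranked higher in all WT than in all AY libraries, by 18.0 places of 133 shared regions (value -18.0, exact permutation p = 0.1). A p above the threshold does not show that the proteins occupied the Hmox1 sites alike.

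**Figure D4:**
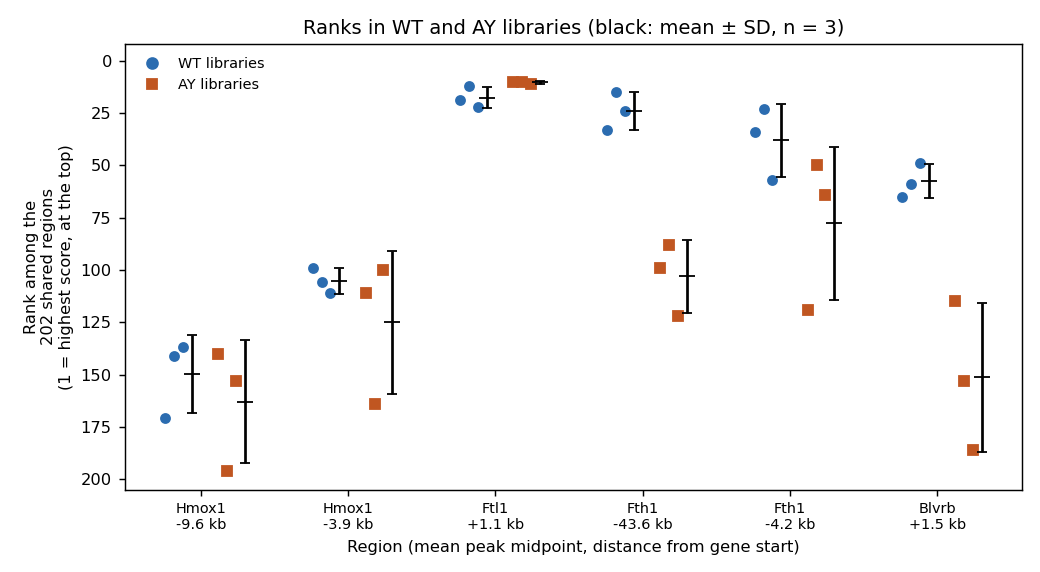
Rank of the 6 shared regions of the 4 genes among the 202 regions held by every library (1 is the highest score, at the top), for WT (circles) and AY (squares) libraries, with mean and SD in black (n = 3). WT and AY points are apart at the Ftl1 region, the Fth1 region at 43.6 kb and the Blvrb region, and mixed at the other 3.

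The 6 shared regions were also put in order within each library, where the place of 1 region depends on the other 5. In all 6 libraries the upstream Ftl1 region came first. WT replicates 1 and 2 had 1 order, Ftl1, Fth1 at 43.6 kb, Fth1 at 4.2 kb, Blvrb, Hmox1 at 3.9 kb and Hmox1 at 9.6 kb, and WT replicate 3 differed only in placing Blvrb before Fth1 at 4.2 kb. The 3 AY libraries had 3 different orders. Blvrb took place 4 in AY replicates 1 and 2 and was last in AY replicate 3. Hmox1 at 3.9 kb took place 3 in AY replicates 1 and 3, whereas each WT library put it at place 5, although its mean rank among the 202 regions was no better in AY (125.0) than in WT (105.33). This order was read after the ranks were known and was not tested.

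Positions of the shared peaks differed little between libraries. The midpoints of 1 region spanned from 35.0 bp, at Fth1 43.6 kb from the start, to 123.5 bp, at Blvrb. At the Fth1 region 4.2 kb from the start, the midpoints stood at -4119.5, -4141.0 and -4156.0 bp from the start in the WT libraries and at -4173.0, -4173.5 and -4200.0 bp in the AY libraries, in replicate order. All AY midpoints thus lay farther from the start, by 43.4 bp on average (exact permutation p = 0.1, adjusted p = 0.631 over 202 regions), where 15.8% of all shared regions had midpoints that did not overlap between genotypes. The median absolute difference over the 202 regions was 23.3 bp. Midpoints overlapped between genotypes at the other 5 shared regions of the 4 genes. Peak widths overlapped at all 6, against 13.4% of all shared regions that were apart. At Blvrb the widths were 894, 680 and 710 bp in WT and 876, 542 and 483 bp in AY, and at the upstream Ftl1 region 954, 803 and 825 bp in WT and 962, 907 and 790 bp in AY. The midpoint and width comparisons were added after the values had been seen.

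The number of regions depended on the width of the windows: 6 with 25 kb on either side, 9 with 50 kb and 14 with 100 kb. Nearest inside was the Fth1 region at 43.6 kb. Nearest outside was a region 50.4 kb below the Hmox1 start, at 77566829 to 77567443, with a peak in 1 AY library. Only the nearest outside region on each side of a gene was looked up, so not every region added by wider windows is named. Around Blvrb these lay 60.1 kb below the start (2 WT libraries, no AY library) and 88.8 kb above it (3 AY libraries, no WT library). Around Ftl1 the nearest other region had its midpoint 133 kb above the start (1 WT library, no AY library). Around Fth1 it was 191 kb above the start (3 WT libraries, no AY library).

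Regions whose ranks over the 6 libraries were most like those of each gene were sought among the 202 by distance between log10 ranks. For the Blvrb region the nearest was on chromosome 12, 118719164 to 118720030, with ranks of 68, 81 and 58 in WT and 139, 131 and 182.5 in AY (distance 0.19), followed by chromosome 16, 94457120 to 94457979 (0.248). For Hmox1 at 3.9 kb they were chromosome 16, 52418362 to 52419231 (0.145), and chromosome 16, 87712941 to 87713851 (0.217). For the upstream Ftl1 region they were chromosome 9, 82873705 to 82874718 (0.411), and chromosome 4, 11015494 to 11016508 (0.491). For Fth1 at 4.2 kb they were chromosome 2, 121004313 to 121005343 (0.373), and chromosome 15, 77711960 to 77712786 (0.384). None of these was a region of the other 3 genes.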

How the data were processed

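Peak lists of 6 Nrf2 ChIP libraries, 3 WT and 3 AY, were analysed. The submitters' processing notes name bcl2fastq 2.15.0, MACS 1.4, Bowtie2 and the mm9 build. Settings, duplicate handling and use of the input as control were not given in the sources used here. 1 list was deposited by the authors for each library, each peak with a score in column 5, read from its floor of 50 as -10 log10 of the p-value (1e-05 at the floor). Depth is unknown, so no interval was computed.

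Peaks overlapping by 1 bp were merged over all lists before the windows were applied. Coordinates count from 1. Ranks were compared by two-sided exact permutation tests over 20 label assignments, adjusted by Benjamini-Hochberg over 202 regions (Python 3.11.15, numpy 2.4.6, scipy 1.17.1), and the code was tested on simulated data. The p-values measure the spread between libraries, which may be technical. The genes, windows and comparisons were chosen with earlier results of these data known. Every region in the windows is named; likeness took the 2 nearest regions for the best-ranked shared region of each gene. A list of other heme and iron genes was not used, since the gene table is on GRCm38.p6. Alternatives were a minimum score of 100, equal lists, windows of 25 and 100 kb, 50% overlap, merging within 1 kb, libraries left out and a replicate block.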

Additional observations from a re-analysis of the deposited data

How the results depend on the processing

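The counts of 9 regions, 6 in all libraries and 0 in WT alone, changed by at most 1.5 times under the alternatives run, with 1 exception. Windows of 100 kb on either side held 14 regions. At the limit of 1.5 times, windows of 25 kb held 6 regions. The 6 regions in all libraries became 4 with a minimum score of 100 and 4 with equal lists. Both settings took Blvrb and Hmox1 at 9.6 kb out of this class, so Blvrb then had no region in every library. The 2 regions held by AY alone became 1 with a minimum score of 100, 1 with equal lists and 1 with windows of 25 kb; the first 2 settings drop called peaks and windows of 25 kb leave out the Fth1 region at 28.4 kb. Leaving out 1 library at a time gave 2 to 3 such regions, with the Hmox1 region at 30.2 kb as the third without AY replicate 3. The difference in peak number kept its direction, from -3.0 to -2.5 peaks with 1 library left out, -1.0 with equal lists, -1.0 with windows of 25 kb and -0.667 with a minimum score of 100. Of 74 rank differences of single regions under alternatives, 73 kept their direction. The 74 include those with the replicate number as a block, which equal the main values by construction and could not change. The Hmox1 region at 9.6 kb ranged from -24.83 to 3.17 with 1 library left out, the reversal coming without AY replicate 2. At Blvrb and at Fth1 43.6 kb the genotypes stayed apart in every alternative that gave a value, from -111.83 to -72.0 and from -86.5 to -56.67 ranks; Blvrb and Hmox1 at 9.6 kb had no value with a minimum score of 100 or equal lists.

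With the replicate number as a block, the difference in peak number was -2.67, the same as before by construction (exact sign-flip p = 0.25, the smallest possible). Neither this test nor the main one can fall below a threshold of 0.05, so no call could change. In the main tests replicate numbers were treated as names that pair nothing. Deviations of same-numbered libraries correlated at 0.0961, 0.0861 and 0.195 over 1897 regions held by 2 to 5 libraries. Values for differently numbered libraries are not given here, so these correlations cannot show that the numbers pair nothing. The share of the list was added after the data were seen and gave -0.0957 percentage points. Unknown depth limits every absence of a peak.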
